A study of Sus scrofa with 15 samples.

Results

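CXC chemokines are small secreted proteins that direct the movement of leukocytes, and CXC receptors are the G protein-coupled receptors through which these cells sense them. The genes described here are CXCL2, CXCL8, CXCL9, CXCL10, CXCL11, CXCL12, CXCL14, CXCL16, CXCR2 and CXCR4, chosen by name, with no threshold on their values, although earlier results of these data were known when they were chosen. Of the 10 genes, 8 have a row paired with the symbol in the count table of 31908 genes. For CXCL16 and CXCR2 the list of symbols used gives no identifier, and they were not analysed here. Of the 8 genes, 7 were tested among 12774 genes in all, and CXCL8 fell below the filter on low counts.

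The study compared livers of male Duroc x Large White x Landrace piglets in the growing stages, 12 in all, given sterile saline (CON group) or 80 μg/kg of LPS, a component of the outer membrane of Gram-negative bacteria, by intraperitoneal injection (LPS group). Livers were taken 4 h after the injection, and no genotype or agent other than these was listed for either group, while the sources used here do not give the age of the piglets. Whole-liver polyadenylated RNA set aside as input of an m6A immunoprecipitation gave 3 libraries per group. Whether each library came from a single piglet is not stated, so p-values measure the spread between these libraries only.

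In liver, the ligands fall into groups with different known roles. CXCL2 and CXCL8 carry the ELR motif ahead of the CXC cysteines, bind CXCR2 and attract neutrophils, and their genes are classic targets of NF-κB. CXCL9, CXCL10 and CXCL11 lack this motif, are induced by interferons and bind CXCR3 on T and NK cells. CXCL12 is made constitutively by stromal and endothelial cells and retains CXCR4-bearing cells, and CXCL14 is an epithelial chemokine expressed in healthy tissue.

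The CON libraries held between 5927348 and 10351491 counts in total and the LPS libraries between 4348478 and 19967417, the most being in LPS replicate 3. Counts were scaled by edgeR's TMM factors, which ran from 0.979 to 1.11 except for 0.735 in LPS replicate 3. Levels are given as CPM, counts per 1000000 counts of the library after this scaling, and values of a group are listed in the order of its replicates 1, 2 and 3. All 10 hepatocyte markers were tested, and the least ALB was 12380 CPM in LPS replicate 1, so the transcript of the main hepatocyte protein was abundant in every library. LPS replicate 2 stood nearer to the CON libraries than to the other LPS libraries across the tested genes, with Pearson correlations of log2 CPM of 0.928 to 0.949 with CON libraries against 0.914 and 0.858 with LPS replicates 1 and 3. These correlations are over genes, which are not independent replicates.

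The summed counts of the CXC genes took more of the LPS libraries 1 and 3 and less of LPS replicate 2. The 8 genes together held 0.0543%, 0.0472% and 0.0423% of all counts in the CON libraries. They held 0.100%, 0.0376% and 0.271% in the LPS libraries. LPS replicate 2 was therefore below, and the other LPS libraries above, all CON libraries in this share. In LPS replicate 3 CXCL10 alone held 43059 counts, more than the other CXC genes together. CXCL10 and CXCL12 held the most counts in each CON library and in LPS replicate 2, so the share there mostly reflects these genes. In LPS replicate 2, CXCL2, CXCL9, CXCL10 and CXCL11 were below every CON library in CPM, whereas CXCL14 and CXCR4 were above.

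None of the 7 tested genes was called by edgeR's quasi-likelihood test, where called means a Benjamini-Hochberg adjusted p below 0.05 over all tested genes and a fold change above 1.5. The same test called 0.0548% of all tested genes higher and 0% lower in the LPS group. At an unadjusted p below 0.05, 4 of the 7 genes were higher (CXCL2, CXCL9, CXCL10 and CXCL14) and 0 were lower, beside 6.18% and 6.33% of all tested genes. DESeq2 called 1 of the genes, CXCL14, where it called 1.85% of genes with an adjusted p higher, and limma-voom called 0, where it called 0.0157% higher. In 6 of the 7 genes the log2 fold change was above 0, beside 50.5% of all tested genes. The median log2 fold change was 1.80 in the 7 genes and 0.01 over all tested genes, and these 7 genes are those that passed the filter, not the whole set.

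**Figure D1:**
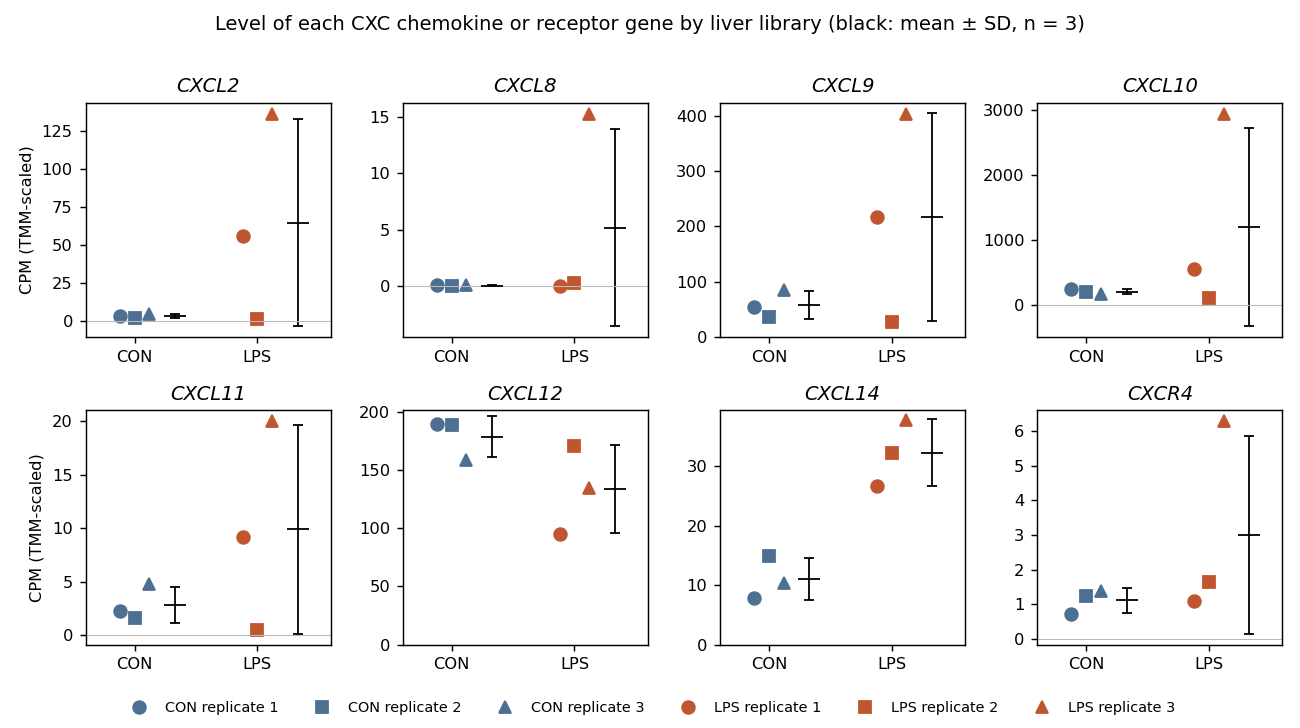
Level of each gene in CPM (counts per 1000000, TMM-scaled, linear axis, 1 panel per gene) in the 3 CON and the 3 LPS libraries, with symbols marking the replicate number and a black bar the mean ± SD (n = 3), which reaches below 0 where the LPS libraries differ most. LPS replicate 3 is the highest library in 7 of the 8 panels, and CXCL14 is the panel in which the groups do not overlap.

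CXCL2 is a neutrophil-attracting ligand released early by macrophages and other liver cells, and it had the largest fold change of the tested CXC genes. Its levels were 3.40, 2.19 and 4.94 CPM in the CON libraries and 56.0, 1.47 and 136 CPM in the LPS libraries. LPS replicates 1 and 3 were 16.0 and 38.8 times the CON mean, whereas LPS replicate 2 lay below every CON library, so the groups overlapped. The value of LPS replicate 2 rests on 9 counts. Its exact 95% Poisson interval, which reflects counting error alone, ran from 0.673 to 2.80 CPM and overlaps those of CON replicates 1 and 2. The log2 fold change was 4.19 ± 1.16 (SE, adjusted p = 0.220 in edgeR). Without LPS replicate 2 it was 4.76 ± 0.49 (SE, adjusted p = 0.000641 in edgeR), and CXCL2 was then called, with 3.76% of all tested genes called higher in that fit. Without LPS replicate 3 it was 3.02 ± 1.23 (SE, adjusted p = 0.420 in edgeR), and limma-voom gave 2.81 with all 6 libraries.

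The row named CXCL2 (ENSSSCG00000008959) runs over chromosome 8 from 70054888 to 70159145 on the plus strand, in the coordinates of the deposited table, with a genome build that the sources used here leave unnamed. Its exons fall into 3 clusters separated by 88519 and 9240 bases without exons. The clusters hold 1110, 1636 and 1114 exonic bases. The CXCL1, CXCL2 and CXCL3 genes of mammals are near-identical copies lying side by side, so the count may pool several copies, and which copy was counted is uncertain. No row is paired with the symbol CXCL1 or CXCL3 in the table of gene names.

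CXCL8, which encodes interleukin 8, was detected above a few reads in a single library. Its counts were 1, 0 and 1 in the CON libraries and 0, 2 and 224 in LPS replicates 1, 2 and 3. The level in LPS replicate 3 was 15.3 CPM, and the exact 95% Poisson interval, which reflects counting error alone, ran from 13.4 to 17.4. At that level LPS replicate 1 would have held 70.1 counts and LPS replicate 2 would have held 93.5. The 0 counts seen in LPS replicate 1 allow up to 0.654 CPM by a limit of 3 counts, and up to 0.804 CPM by the exact 95% Poisson interval. CXCL8 (ENSSSCG00000008953, chromosome 8 from 69932643 to 69935861) could not pass the filter, which asks for enough counts in 3 libraries. With every gene of at least 1 count in the fit, edgeR gave it a log2 fold change of 5.999 ± 0.85 (SE, adjusted p = 5.7e-10). DESeq2 gave no p-value for CXCL8 with all 6 libraries, and without LPS replicate 3 its log2 fold change was 1.34 ± 3.17 (SE). Leaving out the filter raised the share of all genes called higher to 2.28%, and all but a few CXCL8 reads came from LPS replicate 3.

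AMCF-II, a pig ligand of the same ELR class that lies between CXCL8 and CXCL2 on chromosome 8, had the same shape at a lower level. Its counts were 0, 0 and 1 in the CON libraries and 1, 1 and 33 in LPS replicates 1, 2 and 3. PPBP, a platelet ligand of the same class, had 12, 1 and 8 counts in the CON libraries and 0, 3 and 26 in the LPS libraries. Neither passed the filter on low counts.

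CXCL10, which is induced by interferons and attracts T and NK cells through CXCR3, was the most abundant CXC transcript per length in every library. Its levels were 244, 193 and 168 CPM in the CON libraries and 543, 104 and 2940 CPM in the LPS libraries. LPS replicate 3 was 14.6 times the CON mean and LPS replicate 1 was 2.69 times it, while LPS replicate 2 was 0.516 times it and lower than any CON library. The log2 fold change was 2.57 ± 0.95 (SE, adjusted p = 0.326 in edgeR). Without LPS replicate 3 it was 0.70 ± 0.58 (SE, adjusted p = 0.690 in edgeR), and without LPS replicate 2 it was 3.12 (adjusted p in edgeR = 0.0151).

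CXCL9, the ligand most tied to interferon gamma, had 53.4, 35.6 and 85.5 CPM in the CON libraries and 218, 27.6 and 404 CPM in the LPS libraries. LPS replicates 1 and 3 lay above all CON libraries and LPS replicate 2 lay below them. Its log2 fold change was 1.896 ± 0.78 (SE, adjusted p = 0.367 in edgeR). Without LPS replicate 3 it was 1.09, and without LPS replicate 2 it was 2.42 (adjusted p in edgeR = 0.00957).

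CXCL11, the ligand that binds CXCR3 most tightly, was the scarcest of the 3 interferon-inducible ligands. Its levels were 2.23, 1.56 and 4.75 CPM in the CON libraries and 9.16, 0.491 and 20.004 CPM in the LPS libraries. The value of LPS replicate 2 rests on 3 counts, which gives an exact 95% Poisson interval from 0.101 to 1.43 CPM. The log2 fold change was 1.80 ± 0.93 (SE, adjusted p = 0.470 in edgeR), 0.72 without LPS replicate 3 and 2.35 without LPS replicate 2 (adjusted p in edgeR = 0.0243). The order of the libraries was the same in CXCL9 and CXCL11, and also in CXCL2, a ligand of the other class. It ran from LPS replicate 2 through CON replicates 2, 1 and 3 to LPS replicates 1 and 3. In each of these genes the exact 95% Poisson intervals of LPS replicate 2 and CON replicate 2 overlap.

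The 3 interferon-inducible genes lie together on the minus strand of chromosome 8, CXCL9 (ENSSSCG00000032777) from 71663495 to 71670271, CXCL10 (ENSSSCG00000032474) from 71693339 to 71695948 and CXCL11 (ENSSSCG00000008978) from 71713800 to 71725674. Gaps of 23067 and 17851 bases separate them, and CXCL2 lies 1504349 bases away. CXCL10 and CXCL11 lie inside the span of ART3 on the plus strand, which had between 1 and 26 counts in a library. In LPS replicate 3, ART3 had 26 counts and CXCL10 had 43059. Whether exons of these genes overlap was not tested.

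The balance between these 3 ligands within a library did not separate the groups. Per length, CXCL10 was 8.04, 9.56 and 3.46 times CXCL9 in the CON libraries and 4.39, 6.63 and 12.8 times CXCL9 in the LPS libraries (two-sided exact permutation p = 0.8 on the log2 ratio). CXCL9 was 14.9, 14.3 and 11.3 times CXCL11 in the CON libraries and 14.9, 35.2 and 12.6 times CXCL11 in the LPS libraries (exact permutation p = 0.5). In LPS replicate 3, where each of the 3 genes was highest, CXCL10 was 14.6 times its CON mean, CXCL9 was 6.95 times and CXCL11 was 7.03 times. With 3 libraries per group no two-sided exact permutation test can give a p below 0.1.

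**Figure D2:**
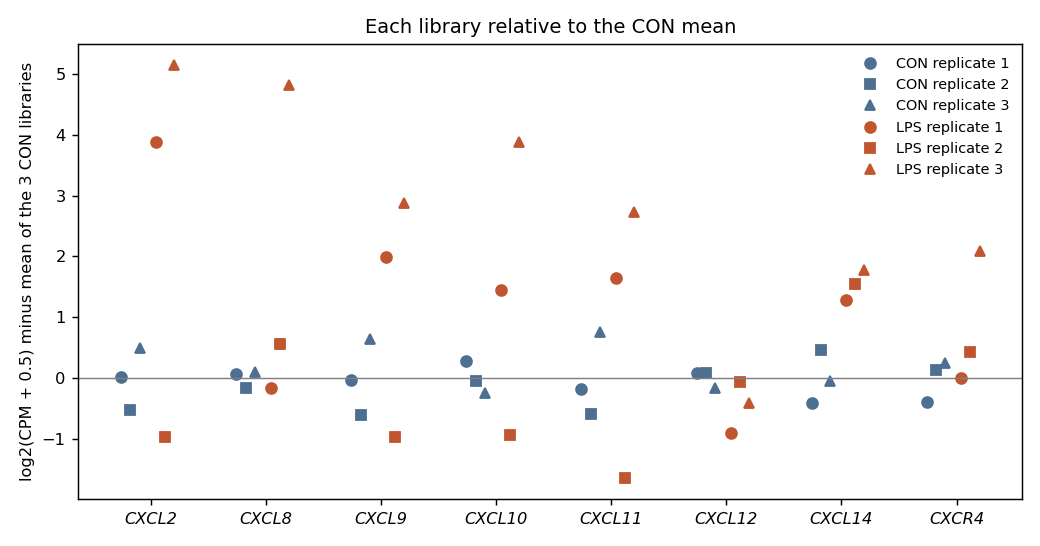
Each library's log2(CPM + 0.5) minus the mean of the 3 CON libraries, by gene, with CON libraries in blue and LPS libraries in orange. LPS replicate 2 (orange squares) sits below the CON libraries for CXCL2, CXCL9, CXCL10 and CXCL11 and with the other LPS libraries, at 1.55, for CXCL14.

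CXCL14, an epithelial and stromal chemokine, was higher in every LPS library than in every CON library and varied least among the LPS libraries of the genes with a log2 fold change above 0. Its levels were 7.86, 14.8 and 10.3 CPM in the CON libraries and 26.6, 32.2 and 37.8 CPM in the LPS libraries. The LPS libraries were 2.42, 2.93 and 3.44 times the CON mean, so LPS replicate 2, which was low for the inducible ligands, stood with the others here. Means were 10.996 ± 3.54 and 32.2 ± 5.61 CPM (SD, n = 3 per group). CXCL14 (ENSSSCG00000014310, chromosome 2 from 137803988 to 137812914, minus strand) was the only tested CXC gene whose groups did not overlap in this direction, and over all tested genes 6.52% had all LPS values above all CON values.

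The log2 fold change of CXCL14 was 1.56 ± 0.35 (SE, adjusted p = 0.139 in edgeR), and the exact two-sided permutation p was 0.1, the smallest that 3 against 3 libraries allow. DESeq2 called it with an adjusted p of 0.00682. With any single library left out of edgeR its log2 fold change stayed between 1.36 and 1.83. It was called without LPS replicate 2 (adjusted p = 0.0333) and not in the other leave-one-out fits, in which its edgeR adjusted p ran from 0.115 to 0.586. Its coefficient of biological variation was 0.321, against 0.828 for CXCL2 and 0.738 for CXCL10.

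CXCL12, the ligand that retains CXCR4-bearing cells, was the only tested CXC gene with a log2 fold change below 0. Its levels were 189, 188 and 158 CPM in the CON libraries and 95.3, 171 and 135 CPM in the LPS libraries. LPS replicate 2 lay within the CON range, so the groups overlapped. The log2 fold change was -0.42 ± 0.32 (SE, adjusted p = 0.632 in edgeR). Without LPS replicate 2 it was -0.63 ± 0.35 (SE, adjusted p = 0.302 in edgeR). CXCL12 (ENSSSCG00000034973) lies on chromosome 14 from 91516429 to 91552766 on the plus strand.

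CXCR4, the CXCL12 receptor found on most leukocytes, was among the least abundant genes of the set, with 8, 8 and 14 counts in the CON libraries and 5, 10 and 92 in the LPS libraries. Its levels were 0.715, 1.25 and 1.38 CPM in the CON libraries and 1.09, 1.64 and 6.28 CPM in the LPS libraries. LPS replicate 3 was 5.63 times the CON mean, while the exact 95% Poisson intervals of LPS replicates 1 and 2, 0.354 to 2.54 and 0.785 to 3.01 CPM, overlap those of the CON libraries. The log2 fold change was 1.51 ± 0.70 (SE, adjusted p = 0.420 in edgeR). Without LPS replicate 3, CXCR4 fell below the filter, and DESeq2 then gave a log2 fold change of 0.34 ± 0.96 (SE). CXCR4 (ENSSSCG00000039416) lies on chromosome 15 from 15663494 to 15667233.

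The ratio of CXCL12 to CXCR4 per length was lower in every LPS library than in every CON library. It was 39.4, 22.4 and 17.02 in the CON libraries and 13.0, 15.5 and 3.20 in the LPS libraries (exact two-sided permutation p = 0.1). CXCL12 and CXCR4 were the pair whose ratio did not overlap between groups among 7 ratios computed. Of single tested genes, 9.80% had all LPS values below all CON values. The small counts of CXCR4 set the precision of the ratio. Its nearest values, 17.02 in CON replicate 3 and 15.5 in LPS replicate 2, rest on 14 and 10 CXCR4 counts. The exact 95% Poisson intervals of CXCR4 there, 0.757 to 2.32 and 0.785 to 3.01 CPM, overlap, so counting error leaves their order unresolved.

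**Figure D3:**
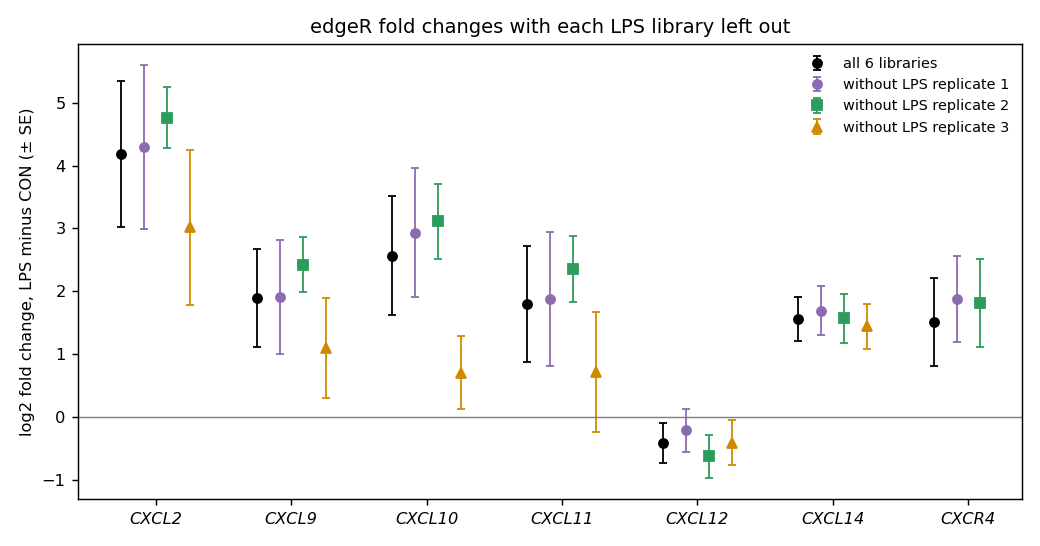
edgeR log2 fold change (LPS minus CON) of the 7 tested genes with its standard error, with all 6 libraries and with each LPS library left out. CXCL10 moves from 2.57 to 0.70 without LPS replicate 3, whereas CXCL14 stays between 1.44 and 1.69 in these fits, and CXCR4 has no value without LPS replicate 3.

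The size of several of these differences therefore depended on single LPS libraries. Without LPS replicate 3 the edgeR log2 fold change fell from 2.57 to 0.70 in CXCL10 and from 1.80 to 0.72 in CXCL11. It fell from 1.896 to 1.09 in CXCL9 and from 4.19 to 3.02 in CXCL2, and moved little in CXCL12 and CXCL14. LPS replicate 3 was the highest of the 6 libraries in 7 of the 8 genes, beside 27.2% of all tested genes. LPS replicate 1 lay above every CON library in 5 and LPS replicate 3 in 6 of the 7 tested genes, beside 32.1% and 34.9% of all tested genes. LPS replicate 2 lay below every CON library in 4 of them (CXCL2, CXCL9, CXCL10 and CXCL11), beside 26.5%, and above every CON library in 2 (CXCL14 and CXCR4), beside 23.3%. Without LPS replicate 2, edgeR called 5 of the 7 genes higher, namely CXCL2, CXCL9, CXCL10, CXCL11 and CXCL14, beside 3.76% of all tested genes. It called 0 of them without LPS replicate 1, 0 without LPS replicate 3 and 0 with the replicate number as a block, fits that called 0.00733%, 0.31% and 0.329% of all tested genes higher. DESeq2 called 2 of the 8 genes without LPS replicate 1 (CXCL8 and CXCL14), 5 without LPS replicate 2 and 1 without LPS replicate 3 (CXCL14), beside 0.817%, 5.57% and 1.18% of genes with an adjusted p.

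Between genes, levels were compared per kilobase of exon. The length was that of all merged exons of a row, 11743 bases for CXCL12, 3860 for CXCL2 and 2531 for CXCL9. The order depends on these lengths, and without them the CON mean of CXCL12 was 179 CPM against 58.2 CPM for CXCL9. In the CON livers CXCL10 stood first with 140 ± 26.8 CPM per kilobase (SD, n = 3), followed by CXCL9 with 23.0 ± 9.996, CXCL12 with 15.2 ± 1.49 and CXCL14 with 7.26 ± 2.34. CXCL11 had 1.80 ± 1.06, CXCL2 0.909 ± 0.358 and CXCR4 0.639 ± 0.203 CPM per kilobase. The CON ranges of CXCL9 and CXCL12 overlapped, as did those of CXCL11 and CXCL2 and those of CXCL2 and CXCR4. Compared within each library, CXCL11 was above CXCL2 in every CON library (1.41, 0.987 and 2.998 against 0.880, 0.567 and 1.28 CPM per kilobase). CXCL9 was above CXCL12, and CXCL2 above CXCR4, in CON replicates 1 and 3 only. In CON replicate 2 CXCL9 had 14.1 against 16.0 for CXCL12, and CXCL2 0.567 against 0.715 for CXCR4.

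In the LPS group the order depended on the library. CXCL2 had 14.5, 0.381 and 35.3 CPM per kilobase in LPS replicates 1, 2 and 3, against 8.11, 14.5 and 11.5 for CXCL12. Per length, CXCL2 was thus 1.79 and 3.07 times CXCL12 in LPS replicates 1 and 3 and 0.0262 times it in LPS replicate 2, where the CON libraries had ratios from 0.0354 to 0.0950. Without division by length, CXCL2 was below CXCL12 in LPS replicate 1 (56.0 against 95.3 CPM). In LPS replicate 3 the levels were then 136 and 135 CPM. Ranked by CPM per kilobase, CXCL10 was above 97.6% to 98.5% of the tested genes in the CON libraries. By the same measure it was above 99.0%, 96.4% and 99.7% of them in the LPS libraries.

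**Figure D4:**
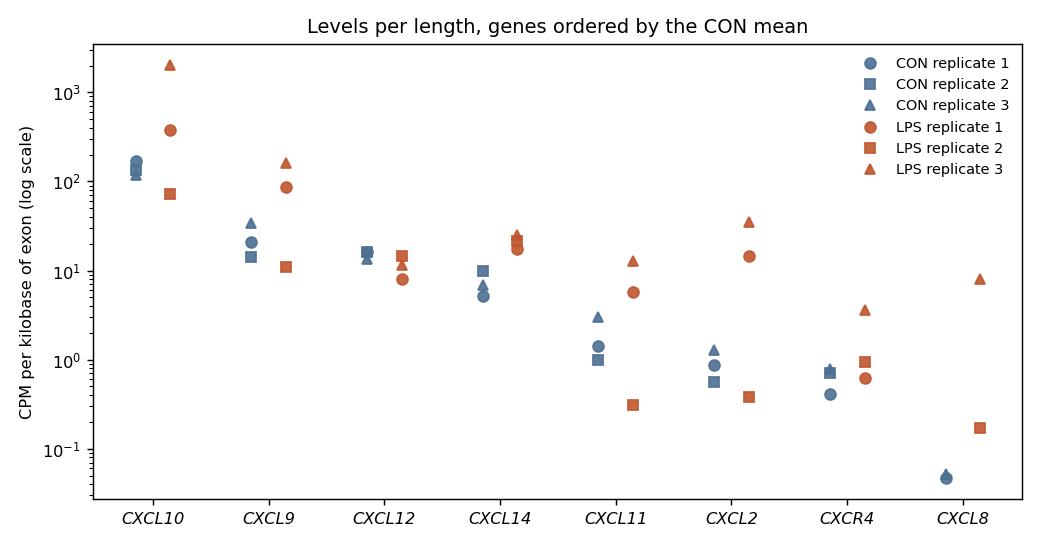
CPM per kilobase of exon on a log axis for each gene and library, with genes ordered by the CON mean. CXCL8 is not drawn in CON replicate 2 and LPS replicate 1, where it had 0 counts, and CXCL2 lies above CXCL12 in LPS replicates 1 and 3.

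Other CXC ligands and receptors in the table gave low counts. Of the 15 genes on this list 7 had a row and 3 were tested, with 0 called. ACKR3, a scavenging receptor of CXCL11 and CXCL12, had 3.57, 7.97 and 3.66 CPM in the CON libraries and 12.7, 5.40 and 17.9 CPM in the LPS libraries (log2 fold change 1.27 ± 0.52 SE, adjusted p = 0.359 in edgeR). CXCR3, the receptor of CXCL9, CXCL10 and CXCL11, had 2.86, 4.22 and 4.94 CPM in the CON libraries and 1.74, 2.78 and 2.32 CPM in the LPS libraries. All LPS values of CXCR3 lay below all CON values, as in 9.80% of all tested genes, with a log2 fold change of -0.80 ± 0.45 (SE, adjusted p = 0.503 in edgeR). CXCR6, the receptor of CXCL16, had a log2 fold change of 0.14 ± 0.51 (SE). Below the filter, CXCR5 had between 5 and 19 counts and ACKR1 between 1 and 25 counts in a library.

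The list of genes upstream of CXCL2 and CXCL8, the NF-κB subunits with C/EBP factors and proteins that decay chemokine mRNA, was tested in full. Of its 15 genes 15 had a log2 fold change above 0, beside 50.5% of all tested genes, with a median of 0.77 beside 0.01. None was called, 3 were higher at an unadjusted p below 0.05, beside 6.18% of all tested genes, and 0 had all LPS values above all CON values. Their summed level in LPS replicate 2, 1122 CPM, lay within the CON range of 1024 to 1607 CPM. The sign did not hold in each library. NFKB1 had 34.9, 39.1 and 33.8 CPM in the CON libraries and 29.9, 29.5 and 111 CPM in the LPS libraries. REL and ZFP36L2 also had LPS replicate 1 below every CON library and LPS replicate 3 highest, whereas CEBPD was highest in LPS replicate 1. ZFP36, which encodes the mRNA decay factor tristetraprolin, had 42.3, 67.0 and 62.6 CPM in the CON libraries and 224, 29.8 and 864 CPM in the LPS libraries (log2 fold change 2.70 ± 0.93 SE, adjusted p = 0.291 in edgeR). CEBPB and CEBPD, acute-phase transcription factors, had log2 fold changes of 1.20 and 1.36 (edgeR adjusted p of 0.353 and 0.385). LPS replicate 2 lay below all CON libraries in ZFP36, as it did in CXCL2, where it had 9 counts.

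The interferon list, with the receptors, JAK kinases, STAT and IRF factors upstream of CXCL9, CXCL10 and CXCL11, had 14 of 14 genes tested. None was called, 4 were higher and 0 lower at an unadjusted p below 0.05, beside 6.18% and 6.33% of all tested genes, and the median log2 fold change was 0.29. IFNGR2, a chain of the interferon gamma receptor, had a log2 fold change of 1.33 ± 0.45 (SE, adjusted p = 0.274 in edgeR). SOCS1, a feedback inhibitor of JAK kinases, had 18.9, 15.2 and 27.7 CPM in the CON libraries and 81.3, 8.998 and 129 CPM in the LPS libraries, and JAK1 had a log2 fold change of 1.14 ± 0.48 (SE).

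The signal transduction list, with the G proteins, kinases and exchange factors that act below chemokine receptors, had 20 of 22 genes tested and a median log2 fold change of -0.22. None was called. DOCK2, an exchange factor for leukocyte migration, had a log2 fold change of -0.92 ± 0.43 (SE), and PIK3R5, a regulatory subunit of PI3Kγ, had 0.96 ± 0.46 (SE).

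The list of shedding, trimming and presentation genes had 11 of 14 genes tested, with 0 called, 1 higher at an unadjusted p below 0.05 (beside 6.18% of all tested genes) and a median log2 fold change of 0.22. MMP9, a protease of neutrophils, had 0.983, 1.56 and 2.08 CPM in the CON libraries and 5.23, 1.96 and 8.94 CPM in the LPS libraries (log2 fold change 1.83 ± 0.60 SE, adjusted p = 0.268 in edgeR). DPP4, which trims and inactivates CXCL10 and CXCL12, had a log2 fold change of -0.89 ± 0.44 (SE) and SULF1 had 1.30 ± 0.62 (SE).

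The genes whose profile over the 6 libraries lay nearest to each CXC gene were named by the root mean square difference of log2 levels after each gene's own mean was taken out. For CXCL9 the nearest gene was SOCS1 (difference 0.147 over 6 libraries) and the next was CXCL11 (0.259). CXCL11 had CXCL9 and SOCS1 (0.272) as its nearest genes. For CXCL10 they were DUSP1 (0.235), an immediate early phosphatase, and HSPH1 (0.308), a heat shock protein, and for CXCL2 they were ITIH3 (0.390) and LEAP2 (0.533). The 2 nearest genes of CXCL14 were AASS (0.110), an enzyme of lysine breakdown, with 24.5, 43.6 and 29.4 CPM in the CON libraries and 91.1, 87.7 and 120 CPM in the LPS libraries, and KLHL30 (0.169). KLHL30 lay near the floor, at 0, 0.313 and 0 CPM in the CON libraries and 1.31, 1.47 and 1.84 CPM in the LPS libraries, so its difference from CXCL14 depends on the pseudocount of 0.5 CPM. For CXCR4 they were SYN1 (0.152) and ADAMTS9 (0.197). These differences describe 6 libraries and carry no test.

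Markers of leukocytes differed in direction by cell type. Among tested genes, 6 of 7 neutrophil markers had a log2 fold change above 0, beside 50.5% of all tested genes. So did 0 of 10 Kupffer cell or macrophage, 1 of 8 T or NK cell and 1 of 5 B cell markers. In whole liver, fewer cells of a type and less RNA per cell cannot be told apart. Of 13 neutrophil markers 9 had a row and 7 were tested, with 1 called (S100A8) and 4 higher at an unadjusted p below 0.05, beside 0.0548% and 6.18% of all tested genes. ELANE, which encodes neutrophil elastase, had a log2 fold change of -0.66 ± 0.63 (SE). Their summed level was 36.7 to 68.8 CPM in the CON libraries and 194, 123 and 348 CPM in LPS replicates 1, 2 and 3. No neutrophil marker with a row was at 0 in all libraries, MMP8 was at 0 in the CON libraries only, and MPO had between 3 and 13 counts in a library. LPS replicate 2 was thus above the CON libraries in the neutrophil sum and below them in CXCL2, where it had 9 counts. The part of neutrophils in the chemokine levels was not tested.

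Of 11 Kupffer cell or macrophage markers 10 were tested, 0 were called and 3 were lower at an unadjusted p below 0.05 (MRC1, TIMD4 and VSIG4), beside 6.33% of all tested genes, with summed levels of 1995 to 3247 CPM in the CON libraries and 1376, 2301 and 1882 CPM in the LPS libraries. Of 10 T or NK cell markers, cells that bear CXCR3, 8 were tested with 0 called, and the sums were 138 to 173 CPM in the CON libraries and 75.7, 127 and 161 CPM in the LPS libraries. Of 6 cholangiocyte markers 5 were tested, 0 were called and 3 were higher at an unadjusted p below 0.05, KRT7 among them, beside 6.18% of all tested genes. Their sum was 22.3 to 33.1 CPM in the CON libraries and 60.0, 35.8 and 120 CPM in the LPS libraries, so it did not overlap between the groups. SPP1 was the largest part of it in every library, with 15.9, 25.5 and 10.3 CPM against 39.5, 14.2 and 87.7 CPM, and overlapped. Of the 5 genes 2 (KRT7 and EPCAM) had all LPS values above all CON values, beside 6.52% of all tested genes. The part of these cells in the levels of CXCL14 or the other ligands was not tested.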

How the data were processed

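The authors deposited raw read counts per Ensembl pig gene, without normalization, in 1 table of 6 input libraries with gene coordinates and exon length. The submitters' processing notes list cutadapt 1.9.3 and HISAT2, and name galGal6 and hg38, which are not pig builds. The sources used here give neither the counting program nor the pig build, nor how strand and shared reads were handled. CON replicates 1 and 2 each have 2 sequencing entries and 1 column. The number of unmapped sample columns was 0.

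Symbols came from a table pairing 15029 identifiers. The test was run in edgeR 4.0.16 under R 4.3.3 (filterByExpr with a minimum count of 10, TMM, robust glmQLFit, glmQLFTest). Standard errors (SE) were derived from the log2 fold change and its F statistic. A pseudocount of 0.5 CPM was used for log2 profiles. Functions were tested on simulated data. DESeq2 1.42.0 (on genes with at least 1 count) and limma 3.58.1 gave alternatives. The CXC genes, the gene lists and the tests were chosen with earlier results of these data known. The named genes were all CXC genes of the set, the 3 smallest p-values of each pathway list and the 2 nearest profiles of each gene whose log2 range exceeded 2. Marker genes and genes below the filter were named after their values were seen. Alternatives were RLE factors, library totals, other filters, the replicate block, no fold threshold, and each library left out. Promoter and protein sequences were not used here. Intervals and the limit of 3 counts cover counting error only. The values of 1 gene of the signal transduction list are not reported here.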

Additional observations from a re-analysis of the deposited data

How the results depend on the processing

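The log2 fold changes of the 7 tested CXC genes kept their direction in every alternative in which they could be fitted, and 97 such values kept their side of the threshold while 18 newly passed it. The alternative without a fold threshold reused the main fit, so its 7 values, counted in the 97, could not change. CXCL12 stayed between -0.63 and -0.18 and CXCL14 between 1.36 and 1.83, whereas CXCL10 ran from 0.70 to 3.15 and CXCR4 from 0.34 to 1.92. The count of CXC genes called was 0 with all 6 libraries and ran from 0 to 5 with 1 library left out, the 5 being reached without LPS replicate 2. It was 6 with no filter on low counts, CXCL8 included, and 1 in DESeq2. In DESeq2 without LPS replicate 1, 2 or 3, a setting chosen after the data were seen, it was 2, 5 and 1. Over all genes the count of 7 called became 12 with library totals only, 885 with no filter on low counts, 0 with at least 10 counts in every library, 416 in DESeq2 and 2 in limma-voom, and it ran from 0, without any one CON replicate, to 982, without LPS replicate 2. In DESeq2 it was 174, 1543 and 312 without LPS replicate 1, 2 or 3. The cause of these shifts was not tested. Without the filter the standard error of CXCL2 fell from 1.16 to 0.45 while its log2 fold change was 4.16. Scaling to library totals moved the median of all genes from 0.01 to -0.12. With the replicate number as a block edgeR called 51 genes and none of the CXC genes, and same-numbered libraries had correlated deviations of -0.256, 0.225 and 0.0261, so the numbers were not taken to pair the libraries. CXCL2, CXCL11 and CXCR4 had no value with at least 10 counts in every library. Depth limits CXCL2, CXCL8, CXCL11 and CXCR4, where single libraries rest on 0 to 10 counts.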

Other observations

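Markers of the remaining cell types were measured in the same libraries, and over all tested genes edgeR gave 6.18% higher and 6.33% lower at an unadjusted p below 0.05. Of 10 endothelial markers 8 were tested with 0 called by edgeR, 1 higher (LYVE1) and 2 lower (TEK and KDR) at an unadjusted p below 0.05, and their summed level was 263 to 579 CPM in the CON libraries and 217, 368 and 253 CPM in LPS replicates 1, 2 and 3. TEK, the angiopoietin receptor, had 16.4, 17.5 and 13.2 CPM in the CON libraries and 3.71, 10.8 and 2.39 CPM in the LPS libraries. Of 10 stellate cell or fibroblast markers, cells that make CXCL12, 9 were tested with 0 called and 1 higher (ACTA2), with sums of 960 to 1367 CPM against 713, 1503 and 1020 CPM. Of 6 B cell markers 5 were tested with 0 called and 0 at an unadjusted p below 0.05, with sums of 18.7 to 69.6 CPM against 11.8, 27.7 and 25.2 CPM. Of 10 hepatocyte markers 0 were called and 1 (ASGR1) was lower at an unadjusted p below 0.05, with sums of 61740 to 78100 CPM against 39580, 45910 and 74960 CPM.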
